A study of Mus musculus with 18 samples.

Results

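Genes of osteoblasts and matrix mineralization were followed through the bone marrow (BM) stroma of developing and adult mice: Runx2, Sp7, Alpl, Phex, Dmp1, Ibsp, Spp1, Bglap and Bglap2. They were chosen by name and make up 9 of the 20275 genes of the single-cell count table. All 9 were read in 4 stromal libraries, which came from embryonic day (E) 16.5 and E18.5, from postnatal day 0 (P0) and from adults, all C57B6/J mice for which the labels give no genetic change or treatment. Each library held CD45-Ter119- cells, a sort meant to remove leukocytes and erythroid cells, stained with antibodies that carry sequence tags so that RNA and surface protein were counted in the same cells (CITE-Seq). Adult stroma was released with collagenase from chips of long bones, pelvis and spine together with part of the marrow, and perinatal stroma from the whole skeleton without the head, so different bones were sampled. Cells of several mice were pooled for each library, perinatal mice came from more than 1 litter, and the experiment was not repeated. With 1 library per stage no difference between stages could be tested, and a difference of at least 2-fold with at least 50 unique molecular identifiers (UMIs) in the higher library stands in for a call. Where values are given in a row by stage, the order is E16.5, E18.5, P0, adult. Levels are counts of a gene scaled to the UMI total of the same cells (CPM), and each interval is an exact 95% interval that covers counting error, not the spread between cells, mice or libraries.

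Osteoblasts arise from mesenchymal precursors and, in bones that form through cartilage, partly from hypertrophic chondrocytes. Runx2 and, downstream of it, Sp7 (osterix) are the transcription factors that osteoblast formation needs. Differentiating cells then make alkaline phosphatase (Alpl), which removes the mineralization inhibitor pyrophosphate, and secrete acidic matrix proteins that bind mineral. The osteocalcin genes are switched on late, and Dmp1 and Phex are best known from osteocytes, the cells buried in bone, where they restrain the phosphate-wasting hormone Fgf23.

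The genes lie on 6 chromosomes of the mouse genome (build GRCm38, the mm10 assembly, GENCODE M21 annotation). Runx2 spans chr17:44495987-44814797 on the minus strand, Sp7 chr15:102356606-102367182 (minus), Alpl chr4:137741733-137796384 (minus) and Phex chrX:157162075-157415312 (minus). The genes of 3 secreted matrix proteins share a stretch of chromosome 5 on the plus strand: Dmp1 at chr5:104202613-104214102, Ibsp at chr5:104299171-104311469 and Spp1 at chr5:104435118-104441050. Dmp1 and Ibsp are 85068 bp apart, and Mepe, another gene of the same family, starts 13859 bp after Ibsp. Bglap at chr3:88383501-88384464 and Bglap2 at chr3:88377736-88378699, both on the minus strand, are 4801 bp apart. Over the last 300 bases of their transcripts, the part that a 3′ library reads, Bglap and Bglap2 were identical at 299 positions, so how their reads were split between them is uncertain. Bglap3, the third copy, matched Bglap at 290 of 300 positions.

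The 250 bases before the transcription start were searched for TGTGGT, the core letters bound by Runx factors, on both strands (ACCACA on the other strand). RefSeq windows were found for 7 of the 9 genes (10 windows, build GRCm38.p6). In 4 genes 1 window each held the motif: Runx2, Dmp1, Spp1 and Bglap. Of 32851 windows of this length over all genes, 14.0% held it, a share by window and not by gene. A match of letters is a description and not a binding site. The 1 window of Ibsp did not hold the motif and is not shown, although its contrast between P0 and the adult was larger than that of Spp1 or Alpl. Windows of 3 genes with a large contrast between P0 and the adult are shown: Bglap (chr3:88384467-88384716, minus strand) and the first of 2 windows of Spp1 (chr5:104434861-104435110, plus strand), in which capitals mark the motif, beginning 132 and 128 bases before the start, and the first window of Alpl (chr4:137796385-137796634, minus strand), in which these letters did not occur.
Bglap: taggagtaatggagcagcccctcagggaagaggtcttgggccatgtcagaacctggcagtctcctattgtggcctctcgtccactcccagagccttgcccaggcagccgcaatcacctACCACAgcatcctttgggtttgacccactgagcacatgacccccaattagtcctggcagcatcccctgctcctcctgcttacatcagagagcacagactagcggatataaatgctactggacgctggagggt
Spp1: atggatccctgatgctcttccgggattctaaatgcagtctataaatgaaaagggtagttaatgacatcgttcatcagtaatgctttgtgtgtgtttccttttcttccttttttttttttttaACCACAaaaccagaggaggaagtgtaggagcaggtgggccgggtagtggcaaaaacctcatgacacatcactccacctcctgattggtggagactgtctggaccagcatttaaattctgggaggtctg
Alpl: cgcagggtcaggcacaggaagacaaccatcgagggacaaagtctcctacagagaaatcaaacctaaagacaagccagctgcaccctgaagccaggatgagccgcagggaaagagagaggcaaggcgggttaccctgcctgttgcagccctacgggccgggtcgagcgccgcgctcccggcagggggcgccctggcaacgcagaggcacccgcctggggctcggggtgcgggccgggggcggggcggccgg

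The stromal libraries held 35219 cells, from 6267 in the adult to 14084 at P0, with 91868751 to 194892476 UMIs per library and a median of 11810 to 15590.5 UMIs per cell. At P0 10.4% of cells had under 1000 UMIs, against 2.53% or less in the other 3 stromal libraries. Pairs of libraries shared 12 to 38 cell barcodes. The authors' annotation put the cells into 66 clusters, each of 1 library and written as a code, 65 of them with at least 50 cells. The library-wide sum of 9 osteoblast markers outside the 9 genes (Col1a1, Ifitm5 and others) by stage was 4525, 7469, 9324 and 13625 CPM. This sum includes the type I collagen genes Col1a1 and Col1a2, and not each marker followed it. Ifitm5 was at least 2-fold lower at E18.5 and at P0 than at E16.5, and at least 2-fold higher in the adult than at P0. Of the 5 osteocyte markers all were detected in every library, but their sum was only 19.6 to 31.5 CPM, and Sost, the defining osteocyte gene, had 8 to 48 UMIs per library. Markers that other cells would bring were also higher in the adult: the sum of 6 blood markers was 3.19 to 7.16 CPM before and at birth and 132 CPM in the adult, that of 5 osteoclast markers 55.7 to 102.2 and 269 CPM, that of 6 markers of Cxcl12-abundant reticular (CAR) cells 151 to 163 and 1201 CPM, that of 6 fibroblast markers 2497 to 4361 and 15957 CPM and that of 5 hypertrophic chondrocyte markers 165 to 288 and 1085 CPM. No osteoblast, blood or CAR marker was at 0 in any library, and 1 osteoclast marker was at 0 at E16.5 and E18.5. Summed levels of 6 other lists, perinatal range first, were 16609 to 44952 and 35475 CPM (chondrocyte), 204 to 359 and 1551 (tendon), 21.9 to 44.4 and 265 (endothelial), 139 to 229 and 387 (pericyte and smooth muscle), 75.9 to 318 and 8.41 (muscle) and 43.9 to 59.9 and 11.4 (Schwann), and that of macrophage markers was 2.97 to 5.96 and 14.4 CPM. The part of these cells in the results was not tested. Leaving out cells with a UMI of Ptprc, the CD45 gene, moved none of the 36 member levels outside its counting interval. No cluster had at least 3 of the blood markers among its 10 leading genes, so no blood cluster was left out. This check could not address red-cell RNA or free RNA.

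The adult library stood apart from the P0 library, the only one it was compared with by fold, at 8 of the 9 genes. Between P0 and the adult, Bglap and Bglap2 (osteocalcins), Ibsp (bone sialoprotein), Alpl, Spp1 (osteopontin), Sp7, Dmp1 and Phex were each at least 3-fold higher in the adult, and Runx2 alone was under 2-fold. Among all 15402 genes measured, 17.6% were at least 2-fold higher in the adult. Fewer cells of a type in a library and less RNA per cell cannot be told apart in library-wide levels. Levels by cluster are given further on, but no cluster was compared between P0 and the adult.

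**Figure D1:**
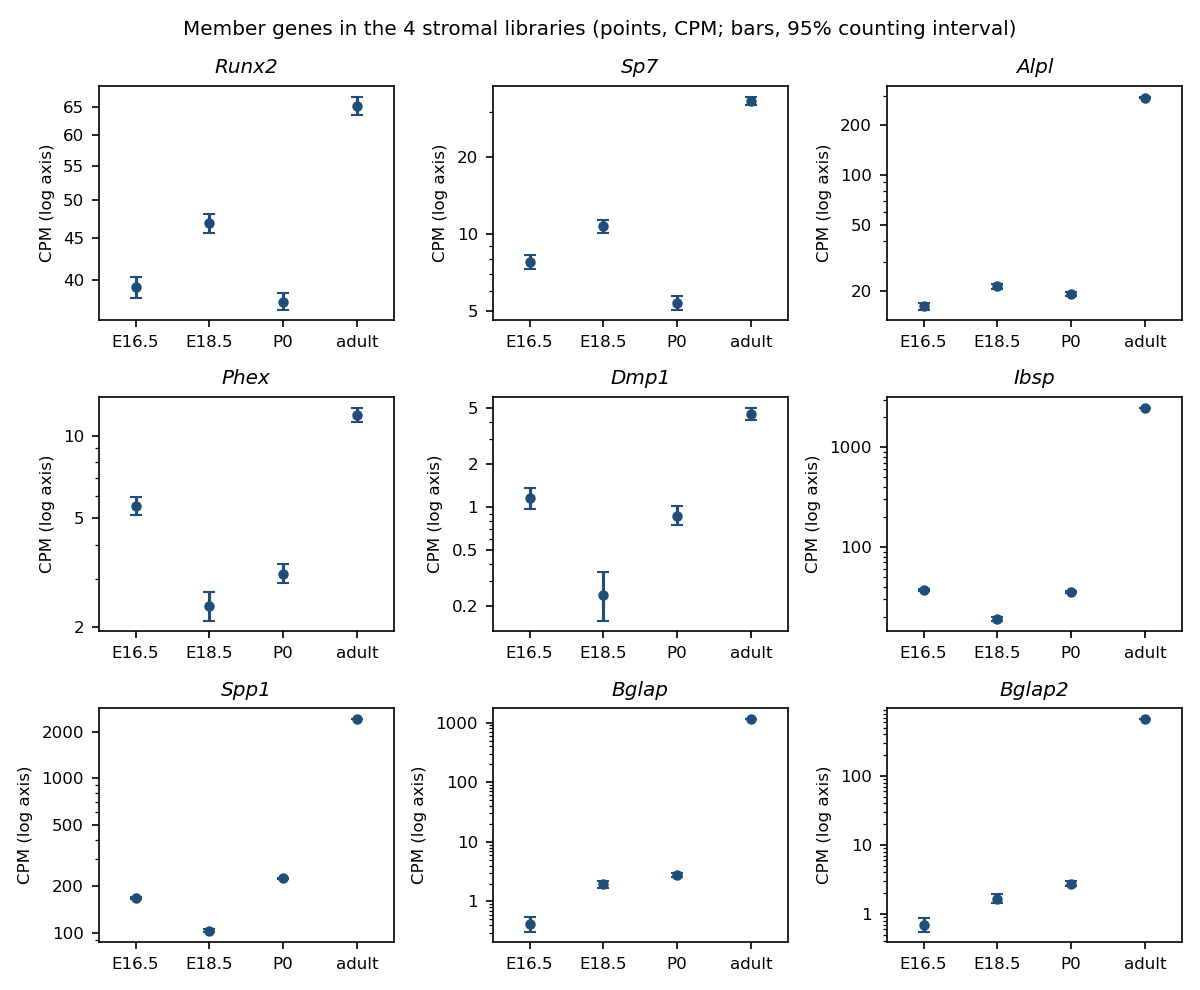
Levels of the 9 genes in the 4 stromal libraries. Each panel gives 1 gene, the x axis the stage and the y axis CPM on a log axis that differs between panels; points are library-wide levels and bars 95% counting intervals. The adult point is the highest in every panel, and its distance to the P0 point runs from 1.73-fold for Runx2 to 413-fold for Bglap.

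Of the transcription factors, Runx2 stood at 39.2, 46.8, 37.6 and 65.2 CPM by stage. Sp7 stood at 7.81, 10.7, 5.39 and 33.2 CPM. The adult Runx2 level was 1.73-fold that of P0 (counting interval 1.67 to 1.79), and the adult Sp7 level 6.16-fold (5.74 to 6.61). The 2 factors thus differed in size of contrast, while before birth both were highest at E18.5. Sp7 at P0 was 1.99-fold lower than at E18.5, just short of the 2-fold mark.

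Alpl, which frees phosphate from pyrophosphate at the cell surface, stood at 16.1, 21.3, 19.2 and 292.3 CPM by stage, in the adult 15.3-fold over P0. Phex, a membrane endopeptidase, stood at 5.55, 2.38, 3.14 and 12.0 CPM. Its E16.5 level was 2.33-fold over that at E18.5. Dmp1, a matrix phosphoprotein of osteocytes, had few counts, with 135, 27, 170 and 419 UMIs in the 4 libraries (1.15, 0.240, 0.872 and 4.56 CPM). Alpl was lowest at E16.5 and the other two at E18.5, and the adult was highest for each.

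Ibsp, which nucleates mineral, stood at 37.1, 19.0, 35.4 and 2480.4 CPM by stage. Spp1, which binds mineral and cell-surface integrins, stood at 168.1, 103.4, 225.0 and 2418.7 CPM. The E18.5 library was the lowest for both. Adult Ibsp was 70.0-fold and adult Spp1 10.8-fold higher than at P0, and the perinatal range of Ibsp, 1.95-fold from E18.5 to E16.5, was small beside it. Without the 10 highest cells of each library Ibsp stood at 2229 CPM in the adult and 17.3 at P0, a wider contrast.

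Bglap, the main osteocalcin gene, was nearly absent before birth, with 49 UMIs (0.419 CPM), then 219 (1.95), 547 (2.81) and, in adults, 106576 (1160.1 CPM). Bglap2 went from 81 UMIs (0.693 CPM) to 187 (1.66), 532 (2.73) and 61783 (672.5). The adult levels were 413-fold and 246-fold those at P0. As a mean over cells, Bglap stood at 683 CPM in the adult, 2.69 at P0 and 0.783 at E16.5, so its contrasts were smaller on that scale. These were the only genes of the 9 whose level was higher at each later stage.

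Between E16.5 and E18.5, 4 of the 9 genes differed by at least 2-fold, against 6.38% of all 14498 genes measured: Bglap (4.65-fold) and Bglap2 (2.40-fold) were higher at E18.5, as were 2.37% of all genes, and Phex (2.33-fold) and Dmp1 (4.81-fold) were lower, as were 4.01%. From E16.5 to P0 the osteocalcins alone differed, Bglap 6.70-fold and Bglap2 3.94-fold higher, where the background was 9.24% in either direction, 6.15% higher and 3.09% lower. From E18.5 to P0 Dmp1 (3.63-fold) and Spp1 (2.18-fold) were higher, where the background was 3.99% in either direction, 3.50% higher and 0.487% lower. These 3 comparisons share libraries. Several perinatal values rested on very few cells. Without the 10 cells with the most UMIs of each gene in each library, Dmp1 no longer counted between E16.5 and E18.5, Ibsp did (lower at E18.5, as it also did by the mean per cell and without mitochondrial, ribosomal and haemoglobin genes), Spp1 joined the osteocalcins from E16.5 to P0, and Ibsp, Bglap and Bglap2 joined Dmp1 and Spp1 from E18.5 to P0. Bglap2 then stood at 0.146, 0.624 and 1.38 CPM at the perinatal stages, a wider contrast than with all cells. The same 10 cells per library were a smaller share at P0, as the libraries held 8226, 6642 and 14084 cells. For Bglap2 they held 79.0%, 62.6% and 49.4% of its UMIs. The part of unequal cell numbers in these changes was not tested. No share over all genes was taken without the top cells, here or within the clusters below, so those counts have no background.

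How few cells is shown by the number that together held 50% of a gene's UMIs. For Ibsp it was 6 of 8226, 2 of 6642, 10 of 14084 and 112 of 6267 cells by stage. For Runx2 it was 482, 490, 785 and 485 cells. The matrix genes were thus concentrated in single cells before birth while the transcription factor was spread over many cells. Spp1 needed 9, 29, 58 and 93 cells, Alpl 66, 66, 132 and 204, Sp7 between 170 and 278, and Phex 60, 36, 74 and 47. Dmp1 needed 4, 10, 6 and 5 cells. Bglap stayed concentrated in the adult as well: 9, 4, 8 and 13 cells held 50% of its UMIs, and Bglap2 gave 4, 6, 11 and 19.

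**Figure D2:**
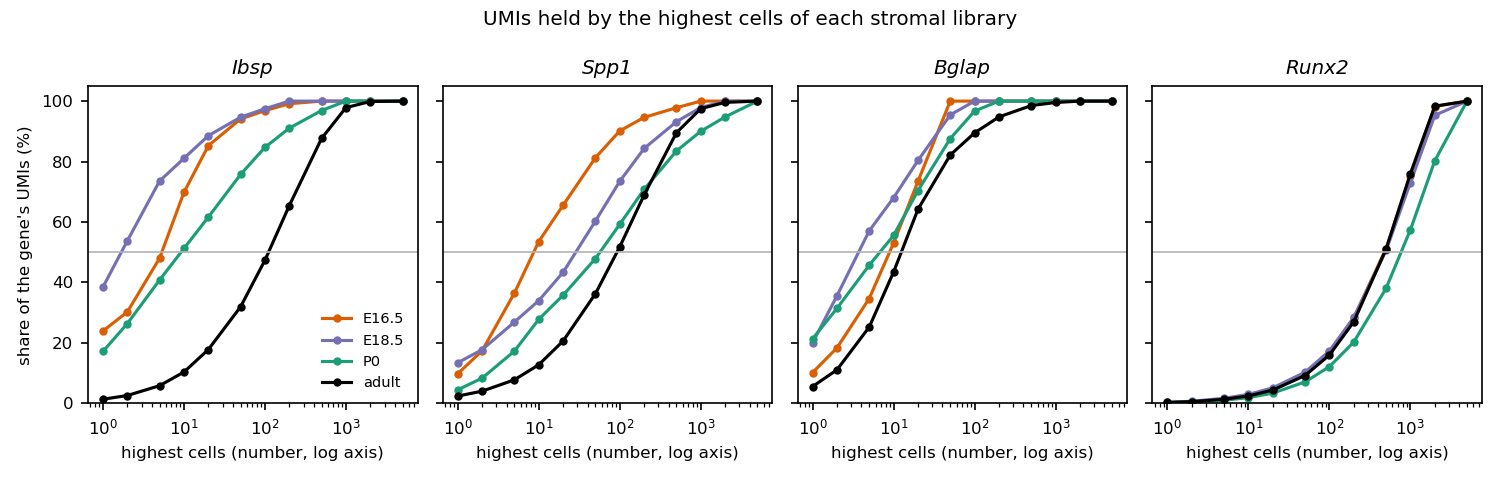
Share of a gene's UMIs (y axis, %) held by the cells with the most of them (x axis, number of cells, log axis), for Ibsp, Spp1, Bglap and Runx2; each line is 1 stromal library and the grey line marks 50%. For Ibsp the perinatal lines pass 50% at 2 to 10 cells and the adult line at 112, whereas for Runx2 all lines pass it at 482 to 785 cells.

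The single highest Ibsp cell at E18.5 lay in cluster C5 and carried 824 of the library's 2140 Ibsp UMIs, with 21 of Spp1, none of Bglap or Col1a1 and 545 of Col10a1, the collagen of hypertrophic chondrocytes. At E16.5 the highest cell lay in cluster F2, with 1039 Ibsp UMIs, 718 of Col1a1, the type I collagen of bone, and none of Col10a1. At P0 the highest lay in C5, with 1187 Ibsp, 296 Spp1 and 508 Col1a1 UMIs and no Bglap or Col10a1. The 10 highest Ibsp cells held 69.8%, 81.1%, 51.3% and 10.4% of the gene's UMIs by stage. At E18.5 the third highest Ibsp cell, in F2, also carried 1564 Spp1 and 4 Bglap UMIs. The 4 highest Bglap cells, all in C5, carried 14 to 44 Bglap UMIs and none of Ibsp or Spp1, with 15 to 20 of Alpl.

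Cells high in sialoprotein and cells high in osteocalcin could be counted with a mark of 5 UMIs. At E16.5 51 cells reached it for Ibsp, 34 of them for Spp1 too, and 46 had no Bglap UMI. At E18.5 29 cells reached it for Ibsp and 7 for Bglap, with no cell in both, numbers too small to show whether the 2 kinds of cell are separate. At P0 the counts were 139 and 27, with 5 cells in both. The adult library had 1328 Ibsp-high cells among 6267, and of its 527 Bglap-high cells 269 were Ibsp-high too, a larger share than among all cells. On the other side, 840 adult Ibsp-high cells had no Bglap UMI and 177 Bglap-high cells no Ibsp UMI. Depth limits what such zeros show, since cells of median depth miss transcripts.

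In the perinatal libraries clusters C5 and F2 together stood above the library-wide level for the 9 genes at each stage, except Dmp1 at E18.5 (0.220 against 0.240 CPM). This did not hold for F2 alone, where Phex was at 4.33, 1.84 and 1.54 CPM against 5.55, 2.38 and 3.14 library-wide. C5 held 662, 401 and 1116 cells in order of stage, and genes of hypertrophic chondrocytes (Col10a1, Ihh, Panx3) were among its 10 leading genes by fold at all 3 stages. The osteoblast marker Smpd3 was also among them at E16.5 and E18.5, as were the members Bglap2 and Spp1 at E16.5 and Bglap at E18.5. F2 (640, 696 and 944 cells) was rich in Col1a1, with 7991, 13138 and 13723 CPM, and Ostn, an osteoblast-secreted peptide, was among its leading genes. None of the listed osteoblast markers was among its 10 leading genes at any stage. The member Bglap2 was among them at P0, and Dlx6, which acts beside Runx2 in osteoblasts, at E16.5 and P0. At E18.5 the leading genes held Tnmd and Kera, which are expressed in tendon, and at E18.5 and P0 Mmp13, a collagenase of hypertrophic chondrocytes. Cells were clustered by their RNA, and the 9 genes may have been among the variable genes used, so these contrasts are a description. C5 and F2 together made up 15.8%, 16.5% and 14.6% of cells and held 84.6%, 58.6% and 61.1% of the UMIs of the 9 genes summed, which Spp1 dominates. By gene the share in C5 and F2 ranged from 57.0% (Runx2) to 96.3% (Bglap2) at E16.5 and from 53.7% (Runx2) to 90.1% (Bglap) at P0. At E18.5 it was 42.9% for Runx2 and 18.5% for Dmp1, so most of their UMIs lay elsewhere, and 54.5% to 89.0% for the other genes. The cluster with the most E18.5 Dmp1 was P1, with 40.7% of its UMIs. C5 alone held 68.1%, 39.3% and 41.1%.

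**Figure D3:**
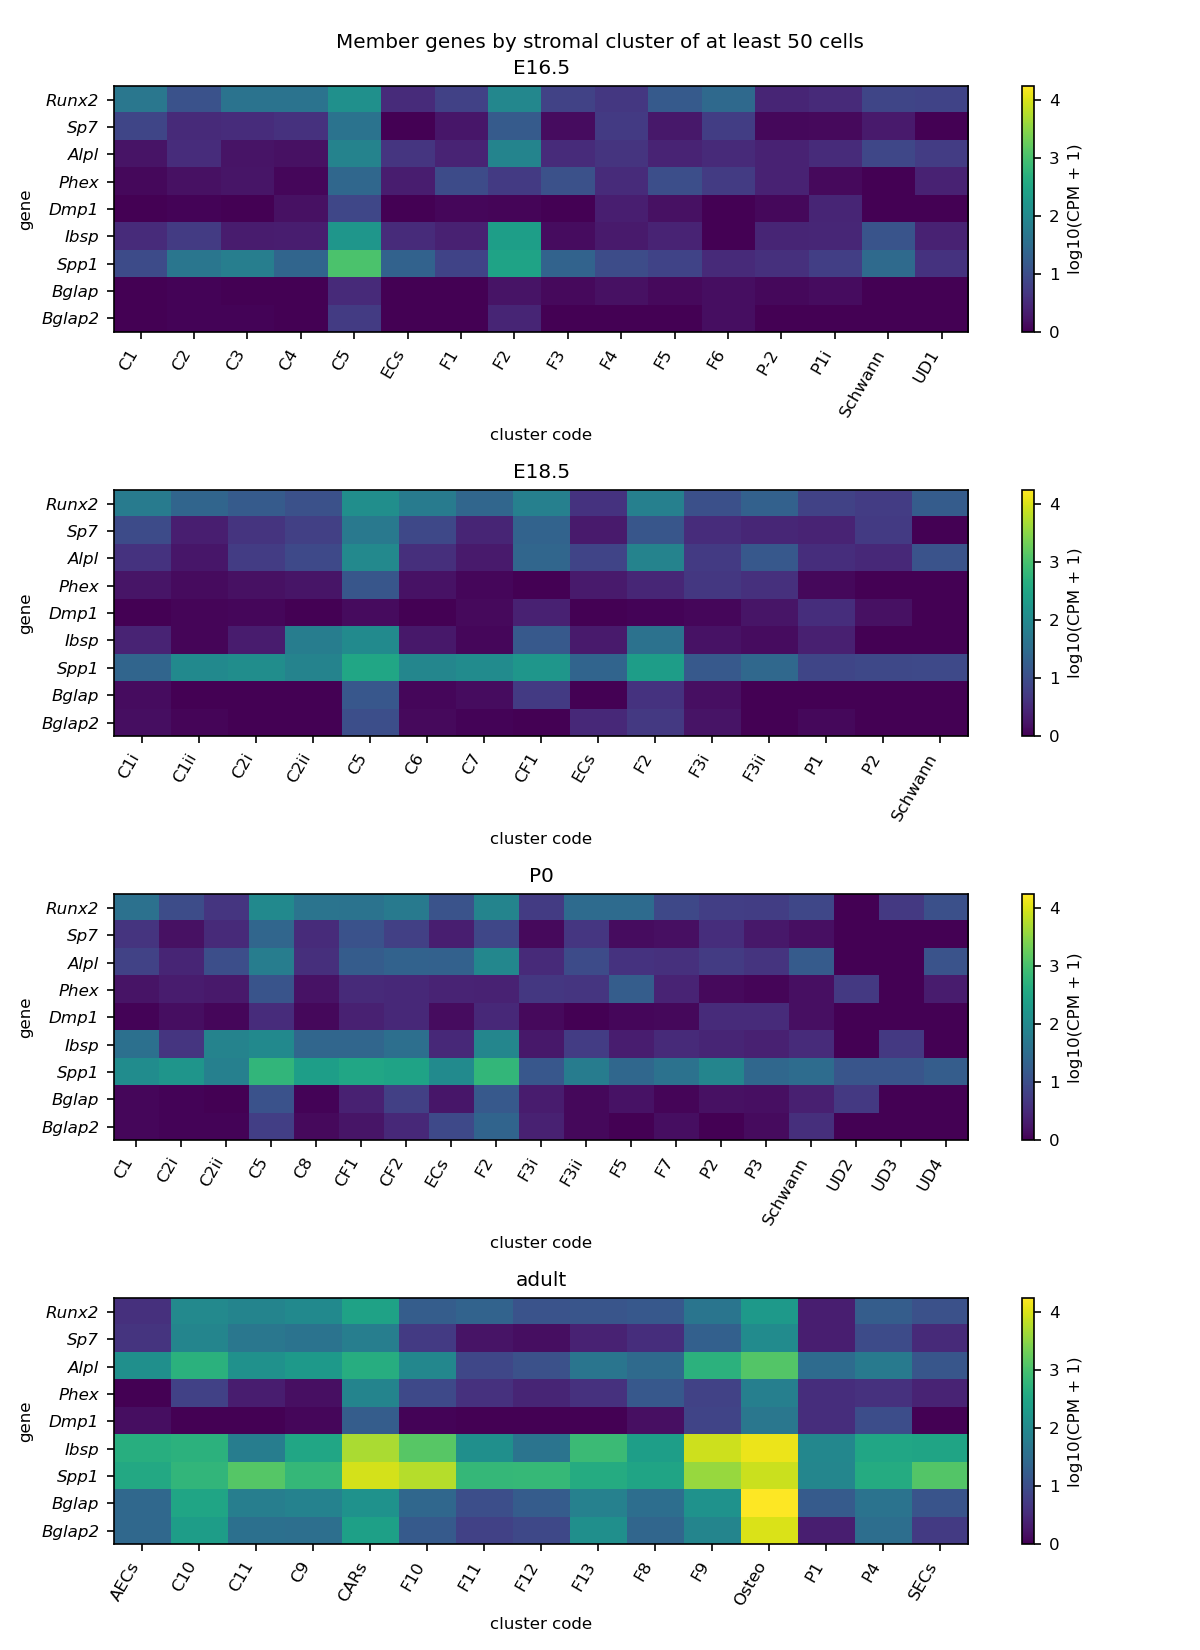
Levels of the 9 genes (rows) in stromal clusters of at least 50 cells (columns, by code), 1 panel per library, colour giving log10(CPM + 1). Before birth and at P0 the columns C5 and F2 are the brightest for Alpl and Spp1, and C5 is for Runx2 and Sp7, while Ibsp is also at 60.9 CPM in E18.5 C2ii; in the adult they sit in Osteo for most genes, with Ibsp also at 8281 CPM in F9 and Spp1 at 9203 CPM in CARs.

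Runx2 was highest in C5 at each perinatal stage, at 135.3, 125.4 and 101.7 CPM, with F2 at 91.4, 68.2 and 79.5. The median over clusters was 8.63, 19.7 and 9.93 CPM. Sp7 was also highest in C5, with 40.0, 51.2 and 23.7 CPM, against 15.6, 12.4 and 6.99 in F2. Without thinning, more C5 cells had a UMI of either factor than of Ibsp: 85.3%, 91.3% and 82.5% of C5 cells had a Runx2 UMI, 52.0%, 71.3% and 35.6% an Sp7 UMI, and 11.2%, 4.99% and 6.90% an Ibsp UMI. Spp1 was found in 27.9%, 29.2% and 42.7%, at P0 more than Sp7. With each cell thinned to 1000 UMIs, the C5 shares were 11.9%, 9.75% and 9.34% for Runx2, 13.9%, 10.3% and 12.2% for Spp1, 3.90%, 5.25% and 1.89% for Sp7 and 4.37%, 1.75% and 1.71% for Ibsp, so the order of the factors and the matrix genes depended on the gene and the stage. For Runx2, endothelial clusters, which should lack it, gave 0%, 0% and 1.52% of 71, 83 and 197 cells (median depth 10893, 9992 and 10797 UMIs, against 21987.5, 31761 and 25228.5 in C5). The endothelial shares were 0%, 1.20% and 0% for Sp7 and for Ibsp, and 1.41%, 1.20% and 4.57% for Spp1. The endothelial cluster was not free of the other genes. At P0 Bglap2 stood at 7.78 CPM there (4.68 to 12.1, from 19 UMIs), second to F2 and overlapping C5 (5.13 CPM) in its interval. P0 Alpl stood at 19.7 CPM there, against 62.5 in C5. At E18.5 the Ibsp share of C5 (0.706% to 3.57%) overlapped the endothelial one (0.0305% to 6.53%) and cannot be told from background, and with so few endothelial cells the Sp7 and Ibsp intervals overlapped at all 3 stages.

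The order of C5 and F2 differed between stages for Alpl: at E16.5 F2 (82.4 CPM, 76.0 to 89.2) and C5 (77.9, 73.4 to 82.6) overlapped in their intervals, at E18.5 C5 was higher (100.1 against 79.4) and at P0 F2 was (92.4 against 62.5). Phex was highest in C5 at E16.5 (25.4 CPM) and E18.5 (12.6), but at P0 in F5 (16.5), with C5 at 11.5. Dmp1 reached 6.93 CPM in C5 at E16.5, from 99 UMIs of which 2 cells held 50%. In E18.5 C5 it had 4 UMIs and at P0 68.

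Ibsp stood at 166.3, 107.1 and 101.6 CPM in C5 and at 239.0, 38.3 and 87.0 in F2. It was not limited to these clusters: C2ii ranked above F2 at E18.5 (60.9 CPM, intervals apart) and overlapped it at P0 (77.3 CPM), where C1 stood at 35.2 CPM. Without the 10 highest cells of each cluster these levels were 43.0, 0.826 and 9.30 CPM in C5 and 5.98, 0.595 and 8.22 in F2. The E16.5 C5 cluster was thus the only one of the 6 with Ibsp beyond 10 CPM outside its top cells. Spp1 was broader, with 1079.0, 320.0 and 628.3 CPM in C5 and 414.5, 137.6 and 352.3 without the top cells. In F2 Spp1 stood at 284.3, 228.6 and 643.3 CPM and at 47.1, 46.1 and 256.1 without them.

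Within C5, 5 of the 9 genes differed by at least 2-fold between E16.5 and E18.5 where 2.43% of 9614 genes did: Bglap (5.83-fold) and Bglap2 (2.07-fold) were higher (background 1.09%) and Phex (2.02-fold), Spp1 (3.37-fold) and Dmp1 (from 99 to 4 UMIs) lower at E18.5 (background 1.34%). Without the 10 highest cells Bglap had 8 and 16 UMIs, Bglap2 8 and 14 and Dmp1 4 and 0, under the minimum of 50, so these 3 no longer counted. From E16.5 to P0 Bglap was 4.77-fold higher and Phex 2.22-fold and Dmp1 2.86-fold lower, with a background of 6.08% in either direction, 4.36% higher and 1.71% lower. From E18.5 to P0 Dmp1 was higher (from 4 to 68 UMIs) and Sp7 2.16-fold lower, with a background of 4.54% in either direction, 3.43% higher and 1.11% lower. All 68 Dmp1 UMIs of P0 lay in the 10 highest cells, so neither P0 difference of Dmp1 counted without them, while Bglap at P0 kept 59 UMIs (2.12 CPM against 0.569 at E16.5). The order of the Spp1 levels was the same without the top cells of each stage. Ibsp was within 2-fold with all cells. Without the 10 highest cells it passed the mark in all 3 comparisons, at 43.0 CPM (607 UMIs) at E16.5, 0.826 at E18.5 and 9.30 (259 UMIs) at P0. Runx2 and Alpl stayed within 2-fold in all 3 comparisons.

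Within F2 the matrix genes had another order over the stages. Ibsp was 6.24-fold lower at E18.5 than at E16.5, the only 1 of 5 measured members past the mark, with a background of 5.33% in either direction, 4.30% higher and 1.03% lower. From E16.5 to P0 Spp1 (2.26-fold), Bglap (from 5 to 193 UMIs) and Bglap2 (from 13 to 308) were higher and Sp7 (2.23-fold) and Ibsp (2.75-fold) lower, among 7 measured, with a background of 9.99% in either direction, 5.61% higher and 4.38% lower. From E18.5 to P0 Ibsp (2.27-fold), Spp1 (2.81-fold), Bglap (4.44-fold) and Bglap2 (5.56-fold) were higher, with a background of 4.86% in either direction, 1.21% higher and 3.66% lower. Without the top cells of each stage the E18.5 Ibsp level, given above, was still the lowest of the 3, but the E16.5 and E18.5 levels rested on 43 and 6 UMIs, under the minimum of 50, and that of P0 was above that of E16.5, the reverse of the order with all cells. The osteocalcins were higher at P0 without them too, with Bglap2 at 0, 0.887 and 6.18 CPM. F2 and C5 both had more cells at P0 than at the earlier stages, so the cells left out were a smaller share of them there.

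**Figure D4:**
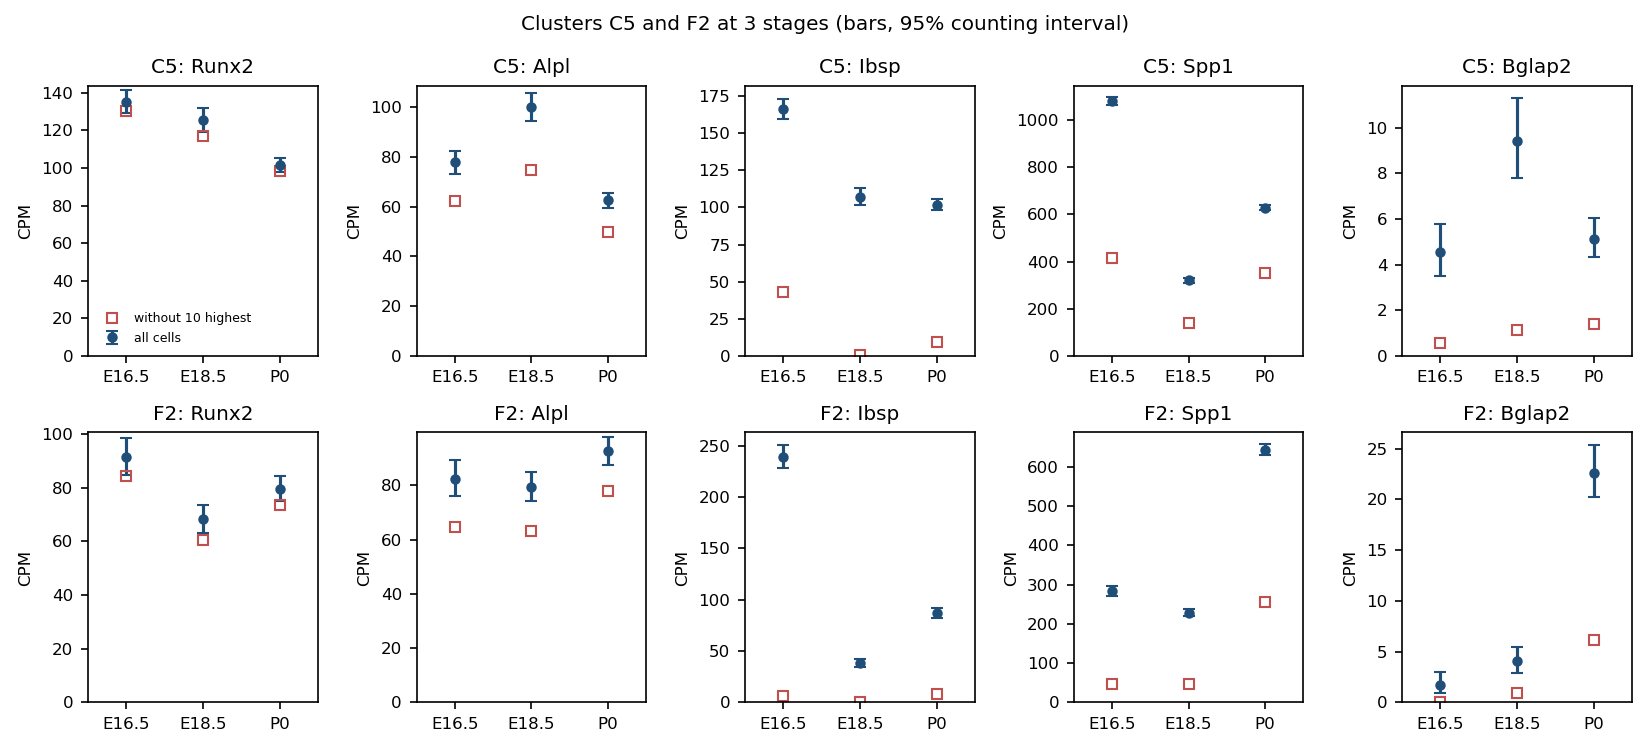
Levels of 5 of the genes in clusters C5 (top row) and F2 (bottom row) at E16.5, E18.5 and P0, in CPM on linear axes from 0. Filled points are all cells with 95% counting intervals, and open squares are the same clusters without the 10 highest cells for that gene. Runx2 and Alpl change less when those cells are left out (Alpl from 100.1 to 74.7 CPM in E18.5 C5) than Ibsp, which goes from 107.1 to 0.826 CPM in E18.5 C5 and from 239.0 to 5.98 CPM in E16.5 F2.

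Cells of C5 and F2 with an Ibsp UMI carried Spp1 more often than the other cells did, in 58.1% to 70.0% of cells over the 6 clusters and stages against 23.0% to 45.7%. Bglap was found in 6.45% to 18.3% of Ibsp cells against 0.328% to 5.51% of the others, a higher share in each of the 6. These Bglap shares rest on few cells with both genes, 6, 3 and 6 in C5 and 2, 2 and 11 in F2 by stage. In E16.5 C5, 67.6% of the 74 cells with an Ibsp UMI also had Spp1, against 23.0% of the other cells, and 29.3% of the 188 Alpl cells had Ibsp against 4.01%, the highest of 6 such shares, which otherwise ran from 7.84% to 14.6% against 0.737% to 4.64%. Median depth was similar in C5 at E16.5 with and without Alpl (21944.5 and 22044 UMIs), and C5 cells with Ibsp were shallower than the others at each stage (18198.5 and 22551.5 at E16.5). In F2 cells with Ibsp were deeper, at 18007 against 10034, 20020 against 13045 and 16272.5 against 12458.5 UMIs by stage, as were those with Alpl (12740.5 against 9634 at E16.5), and the part of depth in the F2 shares was not tested. Between Sp7-positive and Sp7-negative cells the share with Ibsp was 11.3% and 11.0% in C5 at E16.5, 3.50% and 8.70% at E18.5 and 7.81% and 6.40% at P0. In F2 it was 23.0% and 2.47%, 13.9% and 0.810%, and 21.5% and 5.23%, with Sp7-positive cells deeper at each stage (for example 14725 and 9890 UMIs at E16.5). Without thinning, the median C5 cell had 2 of the 9 genes detected at E16.5, 3 at E18.5 and 2 at P0, and the median F2 cell 1 at each stage. C5 was deeper than F2, at a median of 21987.5 against 10209 UMIs at E16.5, 31761 against 13091.5 at E18.5 and 25228.5 against 12689.5 at P0. The part of depth in these numbers was not tested.

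The annotation codes were paired with the study's cluster names by the mean standardized level of each name's first 50 marker genes, a pairing rebuilt here. On it the name osteolineage cell (OLC) went to C5 at E18.5 (mean z 2.04, next best 0.981), to C2i (1.55, next 1.11) and C2ii (1.79, next 1.03) at P0, to Osteo in the adult (1.63, next 0.544), and to no cluster at E16.5. The P0 pair, 1438 cells led by genes such as Prg4 and Mmp3, held 5.80% of the UMIs of the 9 genes summed, with 1 UMI of Bglap and 2 of Bglap2. Ibsp was at 3.58 CPM in C2i and at 77.3 CPM in C2ii, which held 12.1% of its UMIs, and Runx2 at 8.59 and 3.52 CPM. Whether the study's P0 names belong to these clusters is doubtful, and the P0 share depends on it. In the adult 43.1% lay in the cluster given the name.

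In the adult, cluster Osteo had the osteoblast markers Ifitm5 and Bglap3 among its 10 leading genes and 38498 CPM of Col1a1. It was 361 cells, 5.76% of the library, and held 91.8% of Bglap and 89.6% of Bglap2 UMIs. Bglap stood at 17437 CPM there and at 308.8 in C10, the next cluster. Bglap2 stood at 9872 CPM, with CARs next at 261.0. These shares are of UMIs, and 11 Osteo cells held 50% of the Bglap UMIs of the cluster. Counted by cells, 289 of the 1485 adult cells with a Bglap UMI were in Osteo, and with each cell thinned to 1000 UMIs 197 of 453, and 203 of 367 for Bglap2. Dmp1 was also highest in Osteo, at 46.7 CPM and 62.5% of its UMIs, although 2 cells held 50% of them.

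Ibsp and Spp1 had a wider spread. Ibsp was highest in Osteo (13349 CPM, 32.9% of its UMIs), followed by F9 (8281 CPM), CARs (5012) and F10 (1388), with the median over clusters at 324.3. F9, 916 cells led by Otor, Cytl1 and Mepe, held the largest share, 45.6%. Spp1 was highest in CARs (9203 CPM), then Osteo (8025), F10 (5935) and F9 (3869). None of these neighbouring intervals overlapped, but with a mean per cell in place of summed counts Osteo came before CARs for Spp1. In CARs 8 cells held 50% of Spp1 UMIs, and in F10 58 cells did.

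The number of Ibsp UMIs per Bglap UMI differed widely between clusters. It was 0.766 in Osteo and 1.73 in C10, against 35.4 in CARs, 58.3 in F9 and 55.1 in F10. Endothelial clusters gave the background of detection: of 583 endothelial cells thinned to 1000 UMIs (median depth 5331.5), 5.32% had Ibsp, 6.52% Spp1, 7.38% Alpl, 3.09% Bglap and 0% Runx2. In Osteo (361 cells, median depth 13695) the shares were 57.9%, 48.5%, 50.1%, 54.6% and 16.6%. Bglap in F10 (2.63%) and F9 (4.70%) overlapped the endothelial share in their intervals. In CARs it was above it (7.52%, interval 5.01% to 10.8%, against 1.84% to 4.84%). Ibsp in CARs (76.9%), F9 (46.0%) and F10 (23.2%) was far above it.

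**Figure D5:**
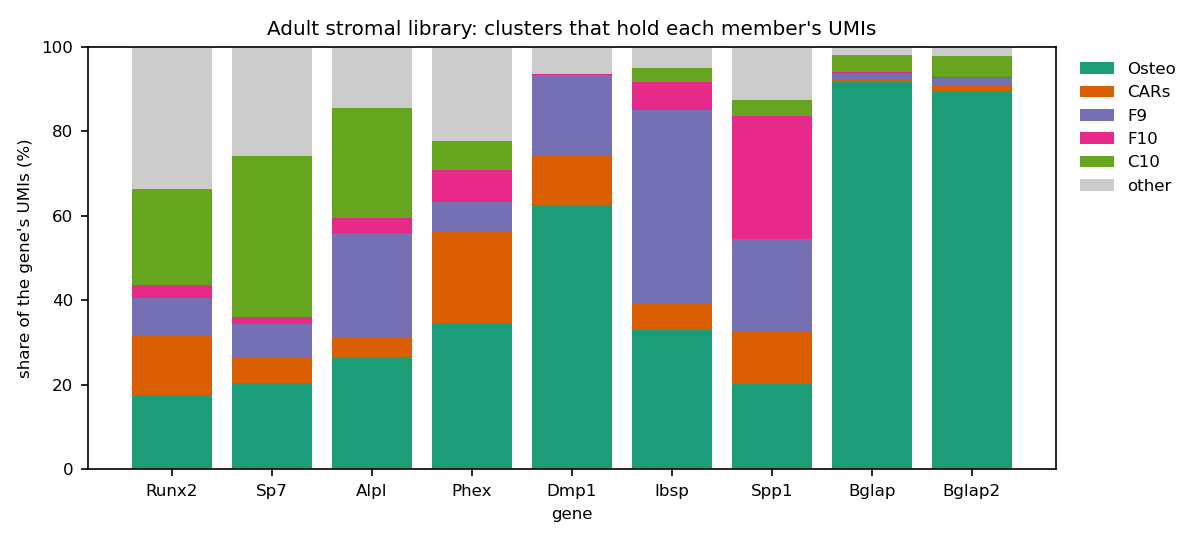
Clusters that hold each gene's UMIs in the adult stromal library; each bar is 1 gene and adds up to 100% of its UMIs (y axis), with colours for 5 clusters and grey for all others. Osteo takes 91.8% of Bglap and 89.6% of Bglap2, but 32.9% of Ibsp and 20.3% of Spp1, where F9 (45.6% of Ibsp) and F10 (29.1% of Spp1) take more.

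Adult Runx2 was highest in CARs, the cluster with 20242 CPM of the niche chemokine Cxcl12 and the adipocyte gene Adipoq among its leading genes. It stood at 276.0 CPM there, at 187.7 in Osteo, 102.5 in C9 and 98.9 in C10, and the last pair overlapped in their intervals. Phex was 79.7 CPM in CARs (69.9 to 90.4) and 67.9 in Osteo (61.3 to 75.1), which also overlapped. CARs thus carried Runx2 and Phex at or above the level of Osteo, with Bglap at 141.6 CPM and Col1a1 at 1858. Sp7 was 110.3 CPM in Osteo, 84.7 in C10 and 64.0 in CARs, and C10, 381 cells with Ihh and Panx3 among their leading genes, held 38.2% of all Sp7 UMIs. Alpl was 1262 CPM in Osteo, with F9 at 524.4 and C10 at 506.7 overlapping. Without thinning, both factors were detected in most C10 cells: 92.4% held a Runx2 UMI and 85.8% an Sp7 UMI. C10 was deep, at a median of 36462 UMIs against 13695 in Osteo, and the part of depth in these shares was not tested.

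Osteo itself was not uniform. Its median cell had 6 of the 9 genes detected without thinning, against 4 in CARs, 2 in F9 and 1 in F10. Median depths of these clusters were 13695, 7185, 12105 and 10992 UMIs. The 225 Osteo cells with an Sp7 UMI had 23224 CPM of Bglap and 18312 of Ibsp, and the 136 others 5278 and 2920, at median depths of 14997 and 12727 UMIs. In CARs the same split gave 4462 CPM of Ibsp with and 5328 without an Sp7 UMI. The 4 highest Bglap cells of the library, all in Osteo, carried 5200 to 5950 Bglap UMIs each and 25 to 407 of Ibsp, while the highest Ibsp cell, also in Osteo, carried 3122 Ibsp, 2856 Spp1 and 5 Bglap UMIs. Among the 10 highest Ibsp cells others carried 768, 503 and 349 Bglap UMIs.

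The share of osteocalcin UMIs assigned to Bglap rather than Bglap2 was 63.9% in Osteo, 62.5% in F9 and 57.7% in C10 but 35.2% in CARs (exact interval 32.5% to 37.9%). F13 was at 35.8%. In CARs 1 cell carried 509 of the 783 Bglap2 UMIs but 29 of the 425 Bglap UMIs, so the low CARs share rests largely on it. Before birth and at P0 the share in C5 was 33.0%, 58.1% and 67.6%, from 97, 279 and 444 UMIs of the pair. In P0 F2 it was 38.5%. These shares rest on few cells too. In P0 C5 1 cell carried 117 of the 300 Bglap UMIs and 19 of the 144 Bglap2 UMIs. In E18.5 C5 1 cell carried 44 of 162 and 33 of 117, and in P0 F2 1 cell 55 of 193 and 90 of 308. Given the near identity of the read part of the transcripts, these shares hold only as the deposited counting assigned the reads.

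Other genes of the pathway were taken from a list of 32, of which 27 or 29 had enough UMIs in a comparison. Between P0 and the adult 15 of 29 were at least 2-fold higher and 0 lower in the adult, where over all genes 17.6% were higher and 11.0% lower. Among transcription factors Dlx3 (15.1-fold), Dlx5 (6.31-fold) and Dlx6 (3.12-fold), which act beside Runx2 in osteoblasts, were higher. Among matrix genes 5 of 10 were higher, led by Bglap3 (156-fold) and Mepe (11.8-fold, from 12 to 67 UMIs), with Ifitm5, a bone-specific membrane protein, at 3.39-fold. Of the phosphate and pyrophosphate genes 3 of 5 were higher: the pyrophosphate exporter Ank (7.60-fold), the sphingomyelinase Smpd3 (4.30-fold) and the phosphate carrier Slc20a1 (4.30-fold). The inhibitors also included higher genes, 3 of 7, with the Wnt antagonists Sfrp4 at 40.2-fold and Dkk1 at 12.3-fold and the glycosyltransferase Galnt3 at 3.24-fold.

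The same pathway genes were compared between the perinatal stages. At E18.5 4 of 27 were higher than at E16.5 (Msx2 2.27-fold, Sparc 2.29-fold, Omd 2.61-fold and Slc20a1 2.45-fold) and 2 lower (Ifitm5 2.26-fold and Dkk1 3.13-fold), where over all genes 2.37% were higher and 4.01% lower. From E16.5 to P0 9 were higher, 6 of them matrix genes such as Col1a1 (2.22-fold) and the mineralization inhibitor Mgp (2.80-fold), and 5 lower, so that 14 of 27 differed, where over all genes 6.15% were higher and 3.09% lower. From E18.5 to P0 none of the 27 passed in either direction, where over all genes 3.50% were higher and 0.487% lower, while Dmp1 and Spp1 passed. Collagen and osteocalcin were therefore both higher at P0 than at E16.5, whereas Ifitm5, at 8.59, 3.80 and 3.99 CPM, was highest at E16.5, as Phex was. Dmp1 was also highest there with all cells, but its intervals at E16.5 and P0 overlapped and without the 10 highest cells P0 was higher (0.370 against 0.308 CPM).

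Over the 65 clusters of at least 50 cells, the genes most like each member in log2(CPM + 10) were found among 15656 genes. Alpl was most like Dlx5 (Pearson r 0.91), Ibsp most like Alpl (0.88), Spp1 most like Ibsp (0.88) and Bglap most like Bglap2 (0.98) and then Bmp8a (0.92). Runx2 was most like Runx3 (0.86), Sp7 like Tmie (0.87), and Phex and Dmp1 both like Gm36827 (0.77 and 0.87). Clusters of a library share its depth and its free RNA, and the adult clusters differ from the others in most of these genes, so these values describe the clusters and carry no test. Within the 50 perinatal clusters the correlation of Ibsp and Bglap was 0.58, and within the 15 adult clusters 0.70.

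The antibody counts gave a readout that the choice of genes did not use. Cells were called positive where the centred log-ratio (CLR) of an antibody was above 1. CD73, a surface enzyme that makes adenosine and a marker of mesenchymal cells, was looked at after the files were seen. At E16.5 Alpl was 6.41-fold, Bglap2 6.50-fold, Sp7 3.46-fold and Runx2 2.87-fold higher in the 2423 CD73-positive cells than in the rest. These were the 4 of 8 measured genes past 2-fold. At E18.5 the fold was 3.76 for Alpl and 2.38 for Sp7, and at P0 3.12 for Alpl, 3.38 for Bglap and 2.90 for Bglap2. In the adult Ibsp stood at 0.387 of the level in CD73-negative cells. The share of all genes past 2-fold was not taken for any antibody, so these folds have no background. The CD73 contrast of Alpl was thus on the same side at all perinatal stages and on the other side in the adult (0.681), and it was so with a CLR level of 0.75 or 1.5 too.

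In adult cells positive for Sca-1, a stem-cell and endothelial antigen, Ibsp stood at 0.256, Alpl at 0.325, Runx2 at 0.394 and Phex at 0.947 of the level in negative cells. At the perinatal stages the Runx2 level in Sca-1-positive cells was 0.748, 0.718 and 0.717 of that in negative cells, and the Alpl level 0.773, 0.693 and 0.562. These perinatal ratios depended on the CLR level: at 0.75 they were 0.875, 0.988 and 1.05 for Runx2 and 1.06, 1.14 and 0.996 for Alpl, and at 1.5 0.380, 0.250 and 0.346 for Runx2 and 0.338, 0.267 and 0.435 for Alpl. Adult Phex went from 0.947 to 1.32 at 1.5, while adult Ibsp, Alpl and Runx2 stayed at 0.256 to 0.507. Some perinatal ratios were above 1: Dmp1 at P0 was 2.39 (41 UMIs in positive cells) and 2.97 at 0.75, Ibsp at P0 1.85, and Ibsp at E18.5 3.73 at 0.75 but 0.0478 at 1. In adult cells positive for CD31, an endothelial antigen, Ibsp stood at 0.299 and Runx2 at 0.423. For CD140a, a mesenchymal receptor, the adult library gave Ibsp at 0.295 and Bglap at 1.56 of the negative level, and E16.5 gave Ibsp at 0.120 and Spp1 at 0.118. How many members passed 2-fold also changed with the CLR level for adult CD140a and adult CD73. Perinatal Ibsp values by antibody depend on where the few top cells fall.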

How the data were processed

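Mouse BM stromal cells were profiled by 3′ droplet CITE-Seq. The authors deposited raw counts of UMIs per gene and cell and antibody-tag counts, made with Cell Ranger 3.1.0 on mm10 and filtered and annotated in R 4.0 with Seurat 3.1.5 (submitters' processing notes and methods); cells with the most genes or UMIs had been removed as putative doublets, and antibody counts were normalized by CLR. Adult BM was lysed for red cells and perinatal BM was not. Here counts were summed per library and cluster (Python 3.11.15, numpy 2.4.6, scipy 1.17.1, pandas 2.3.3) and given as CPM with exact Poisson or Clopper-Pearson 95% intervals, which cover counting error only. The depth of each stromal library is in the report. Folds were counted from 2-fold with at least 50 UMIs in the higher group, over all genes. Shares of cells were taken after thinning each cell to 1000 UMIs, shallower cells left out. The deposited mitochondrial fraction of each cell, from the authors' Seurat objects, was not used further. CLR was recomputed per antibody over the cells of a library. Scrublet (scanpy 1.11.5) called 205 of 8226 cells at E16.5 but 0, 0 and 1 in the other stromal libraries, where it had not worked, so doublets stayed in. CD51 had no counts in stroma. Promoters came from RefSeq; transcripts were aligned with biopython 1.88 and plots drawn with matplotlib 3.10.9.

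The text names all 9 genes, those of the 32 other pathway genes that passed 2-fold (1 is not reported here), the leading like genes of each member and the marker genes used to describe clusters. Members and lists were chosen with earlier results of these data known. The fold counts were checked on simulated counts with known changes. Alternatives covered the denominator, depth and summary of cells, doublets, blood cells, fold and count minimum, scaling, thinning, likeness measure and CLR level. Leaving out the 10 highest cells or clusters of shallow cells, the joint use of C5 and F2, and CD73 were chosen after seeing the data.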

Additional observations from a re-analysis of the deposited data

Results flagged for a closer look

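Of the 9 genes 7 also had more UMIs than a count of 0 allows (3 UMIs) in libraries outside the stromal comparisons, those of Lineage-Kit+ haematopoietic progenitor (HP) cells. The highest level with more than 3 UMIs was 29.1 CPM for Runx2 (P0, with 23.2% of its UMIs in the cluster HSPC3), 15.9 CPM for Spp1 (E16.5 replicate 1, against 1.47 in replicate 2, with 74.8% of its UMIs in the cluster Mono/Mast), 5.52 CPM for Alpl (E18.5, 95.8% in the cluster Bcell1), 0.845 CPM for Ibsp, 0.186 CPM for Bglap and 0.0845 CPM for Bglap2 (all adult) and 0.154 CPM for Phex (E18.5, from 10 UMIs). In the adult HP library 92.0% of the 50 Ibsp UMIs lay in a cluster of 56 cells annotated Stroma. Sp7 had 0 to 2 UMIs and Dmp1 none in these libraries.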

How the results depend on the processing

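No library-wide difference past 2-fold changed direction. Without the 10 highest cells the Ibsp difference of E16.5 and P0 in F2 turned (239.0 and 87.0 CPM to 5.98 and 8.22), as did library-wide orders short of 2-fold for Ibsp (37.1 and 35.4 CPM to 11.2 and 17.3) and Dmp1 (1.15 and 0.872 to 0.308 and 0.370). In each case 10 cells were a smaller share of the cells at P0 than at E16.5, and the part of this was not tested. Perinatal Sca-1 ratios changed with the CLR level, those of Alpl at E16.5 from 1.06 at 0.75 to 0.338 at 1.5. The adult against P0 count of 8 higher genes was the same under all 8 alternatives run. The median-of-ratios size factor was 1.07 times the CPM scaling in the adult and 0.969 times at P0. Counts are divided by it, so adult levels were lower and P0 levels higher on that scale. Over all measured genes the median adult against P0 log2 difference on the CPM scale was 0.18. With 3-fold as the mark, E18.5 against E16.5 kept 2 members (4 at 2-fold) and 1 pathway gene (6), P0 against E16.5 2 pathway genes (14), and P0 against E18.5 1 member (2). With 20 UMIs as the minimum P0 against E18.5 gave 1 pathway gene (0), and without the 10 highest cells 5 members (2). The share over all genes was not taken again under these alternatives. By the share of cells with a UMI in place of UMIs, the clusters named OLC held 12.1% (39.3%) at E18.5, 9.41% (5.80%) at P0 and, in adults, 7.37% (43.1%). C5 and F2 in their place held 58.6% and 61.1% at the first 2 of these stages. Choosing clusters with at least 2 of 5 listed osteoblast genes among their 10 leading genes gave none at any stage (Bglap3 is not among the 5, so adult Osteo had Ifitm5 alone). By the mean per cell and without mitochondrial, ribosomal and haemoglobin genes E18.5 against E16.5 gave 5 members (4), with Ibsp, and by the mean per cell P0 against E18.5 3 (2), with Bglap2. With Spearman's rho 15 of 45 like genes were kept. The cause was not tested. Leaving out mitochondrial, ribosomal and haemoglobin genes moved levels by 1.19 to 1.51 times and a mean over cells by 0.578 to 1.87 times. Of 36 highest clusters 34 were the same in cells of at least 1000 UMIs and 31 by the mean per cell, by which Alpl and Ibsp at E16.5 and Spp1 at P0 went from F2 to C5, adult Spp1 from CARs to Osteo and Dmp1 at P0 from C5 to P2. Leaving out called doublets could be run only at E16.5, not for folds or clusters. No paired analysis was possible because each stage has 1 stromal library and no groups were tested.

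Adult Bglap and Ibsp levels are precise as counts, but 1 library per stage, pooled mice and transcripts held by few cells leave their spread between animals unknown.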
